A study of Homo sapiens with 10 samples.

Results

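Immediate early genes are genes that cells transcribe within minutes of a stimulus, without first making new protein, and 10 of them were followed here across 3 amounts of cysteine in the medium. The genes were taken by name from the deposited gene table, with Ensembl identifiers matched to symbols through GENCODE release 44: FOS, FOSB, FOSL1, JUN, JUNB, EGR1, EGR2, IER2, IER3 and DUSP1. The table lists 78894 gene identifiers, of which 29045 passed a filter on low values (at least 3 of the 10 libraries at 10 or above), and all 10 genes passed it. The cells were HEK293T, an established human embryonic kidney line, and their poly(A) RNA was sequenced after 24 h in media labelled 0X-Cys (cysteine-free, 2 libraries), 1X-Cys (complete, 4 libraries) and 10X-Cys (excess, 10 times the cysteine of complete media, 4 libraries). The study's RNA-seq methods refer to its starvation treatment without saying which of the described media protocols applied, so what the media share besides their labels is not settled here. The study's legend gives another number of replicates for cysteine-free and complete media than the labels, and the labels were followed. Each library is labelled as a biological replicate, and the single time point is far later than the minutes to hours over which these genes classically respond. The values are normalized counts, that is, reads on a gene divided by the size factor of its library.

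Growth factors, stress and calcium signals reach these genes through mitogen-activated protein kinase (MAPK) cascades, which act on serum response factor with its ternary complex partners at CArG boxes and on CREB-type factors at cyclic AMP response elements. FOS and JUN proteins pair as the dimeric transcription factor AP-1, EGR proteins are zinc-finger transcription factors, and DUSP1 is a phosphatase that switches MAPKs off again. Their mRNAs are typically short-lived, many of them through AU-rich elements, so their levels follow both transcription and decay.

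Start-site sequences are shown for EGR1 and EGR2, for FOS and FOSB and for DUSP1, because they carry the elements named above and belong to genes whose results are contrasted below. RefSeq start-site windows (GRCh38.p14, 250 bases before to 50 after the start) were found for 8 of the 10 genes and not for FOSL1 and IER3. Each line gives bases -150 to -21 from the start, 5' to 3' on the strand of the gene, with CArG boxes, TGACG and its complement CGTCA in capitals. The windows are EGR1 at chr5:138465329-138465458 (+), the third of 3 EGR2 windows at chr10:62816387-62816516 (-), DUSP1 at chr5:172771216-172771345 (-), FOS at chr14:75278678-75278807 (+) and FOSB at chr19:45467846-45467975 (+), none of which overlaps an exon in GENCODE release 44.
EGR1: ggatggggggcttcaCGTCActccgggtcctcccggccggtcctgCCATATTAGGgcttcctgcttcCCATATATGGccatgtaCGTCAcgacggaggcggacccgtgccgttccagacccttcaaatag
EGR2: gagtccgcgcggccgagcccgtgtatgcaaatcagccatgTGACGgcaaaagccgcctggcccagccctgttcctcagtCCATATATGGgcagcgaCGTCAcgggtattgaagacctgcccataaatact
DUSP1: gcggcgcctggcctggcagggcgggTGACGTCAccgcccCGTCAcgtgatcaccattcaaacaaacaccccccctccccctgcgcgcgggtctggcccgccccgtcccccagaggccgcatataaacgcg
FOS: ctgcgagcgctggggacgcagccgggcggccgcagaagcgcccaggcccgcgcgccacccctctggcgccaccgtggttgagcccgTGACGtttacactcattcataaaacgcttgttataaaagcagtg
FOSB: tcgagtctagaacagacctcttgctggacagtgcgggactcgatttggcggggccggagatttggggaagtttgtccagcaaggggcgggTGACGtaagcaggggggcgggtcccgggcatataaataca

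EGR1 holds CArG boxes at -105 and -83 and EGR2 holds one at -71. The windows of the rest of the 8 genes held no CArG box, and bases beyond the windows were not searched. A CArG box was found on either strand in 1.29% of 35116 RefSeq windows of the same length. TGACG on either strand, the core of the cyclic AMP response element, was present in all 8 genes, in 8 of their 10 windows, and in 24.6% of all windows. The palindrome TGACGTCA, which contains TGACG, was present in DUSP1 at -125 and in 1.85% of windows. TATAAA on either strand was present in DUSP1, FOS, FOSB and JUNB and in 11.5% of windows. A match describes the letters in this window and does not show that a factor binds there.

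In complete media the 10 genes covered a wide range of levels. Levels per kilobase use the union of all exons annotated for a gene as its length. Per kilobase of exon, JUN stood highest at 2499.9 ± 596 normalized counts (SD, n = 4; percentile 97.0 of 26104 kept genes with an exon length). IER2 (488 ± 27.1) and DUSP1 (452 ± 12.0) followed, then JUNB (234 ± 39.7), IER3 (203 ± 26.0) and EGR1 (173 ± 25.2). FOSL1 (49.6 ± 9.07), FOS (37.9 ± 8.87) and FOSB (28.4 ± 5.38) were lower again, and EGR2 was lowest at 7.27 ± 1.59 per kb (percentile 10.1). Within each of the sets IER2 and DUSP1; JUNB, IER3 and EGR1; and FOSL1, FOS and FOSB, neighbouring means lay closer together than the sum of their SDs, while the steps between the sets were larger than that. EGR2 rested on 8 to 76 reads per library, whereas JUN had up to 14393, so EGR2 is the member whose counting error weighs most.

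The plot of the members by library gives every value behind the comparisons.

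**Figure D1:**
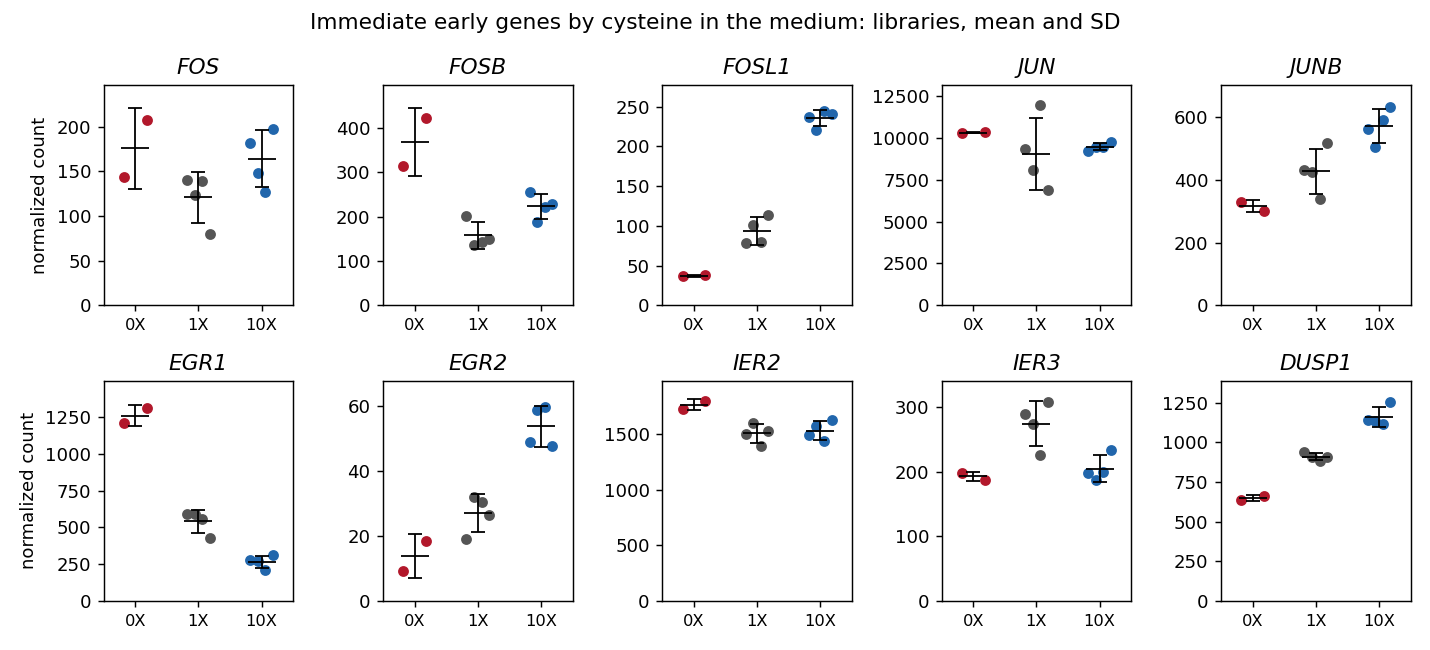
Normalized count (vertical axes, each from 0) of the 10 immediate early genes in cysteine-free (0X, red, n = 2), complete (1X, grey, n = 4) and excess (10X, blue, n = 4) media, with points for libraries and bars for mean and SD. EGR1 steps down from about 1259.7 to 541 and 268 with more cysteine, while the means of FOSL1, EGR2, JUNB and DUSP1 step up.

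Among the FOS subunits, FOSL1 (chr11:65892049-65900573, minus strand), which encodes FRA-1, rose with cysteine over all 3 media. Its normalized counts were 36.4 and 38.2 in cysteine-free, 78.8, 101, 80.2 and 114 in complete, and 238, 221, 244 and 241 in excess media. No 2 groups overlapped, and the excess libraries had an SD of 10.6 around their mean of 236. Relative to complete media (93.6 ± 17.1), FOSL1 was lower in cysteine-free media (37.3 ± 1.22; log2 difference -1.29, SE 0.228, limma adjusted p = 1.00e-03) and higher in excess media (log2 difference 1.34, SE 0.131, adjusted p = 1.53e-07). Between the outer groups it was 6.18-fold higher in excess media (adjusted p = 5.84e-14). Without cysteine-free replicate 1 or 2, the comparison with complete media was at an adjusted p of 0.0210 or 0.0184. In these bulk libraries, a lower level in every cell and fewer cells expressing a gene cannot be told apart.

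FOSB (chr19:45467995-45475179, plus strand), which encodes another FOS subunit, was higher in both altered media than in complete media. Its values were 313 and 422 in cysteine-free, 202, 136, 143 and 150.3 in complete, and 255, 187, 223 and 229 in excess media. The cysteine-free libraries stood above all others, whereas complete and excess media overlapped through the first complete library (202) and the second excess library (187). The cysteine-free mean of 368 ± 77.0 was 2.32-fold that of complete media by the fitted difference (158 ± 29.9; log2 1.22, SE 0.178, limma adjusted p = 2.54e-04; 0.0213 without cysteine-free replicate 2). The difference of excess from complete media was 0.51 (SE 0.133, adjusted p = 3.62e-03) and was lost when any of complete replicate 2 or excess replicates 1, 3 or 4 was left out (adjusted p 0.0102 to 0.0185). Counting the main fit and all alternatives at the same threshold, it was called in 16 of 21. Cysteine-free media also exceeded excess media (log2 0.71, SE 0.127, adjusted p = 3.82e-05).

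FOS itself (chr14:75278826-75282230, plus strand), the first described partner of JUN, did not pass the test in any comparison. Its values were 144 and 208 in cysteine-free, 141, 124, 139 and 80.1 in complete, and 182, 149, 127 and 198 in excess media. Complete media held the lowest values, but the cysteine-free library at 144 lay just above the complete library at 141, and excess media overlapped both. The log2 difference from complete media was 0.55 (SE 0.233, limma adjusted p = 0.0989) in cysteine-free and 0.45 (SE 0.179, adjusted p = 0.0402) in excess media, and FOS was the member with the largest SD of log2 values within both complete and excess media.

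The shares of FOS, FOSB and FOSL1 within each library do not depend on how libraries are scaled. They do depend on the exon lengths used, which were 3186, 5553 and 1887 bases. Before division by length, FOSB (158 ± 29.9) stood above FOS (121 ± 28.3) and FOSL1 (93.6 ± 17.1) in complete media. In excess media FOSL1 was at 236 ± 10.6, FOSB at 224 ± 28.3 and FOS at 164 ± 32.0. FOSL2, another FOS family gene, is no member and is left out of these shares. It stood at 188 ± 44.4, 208 ± 32.2 and 860 ± 45.9 normalized counts in cysteine-free, complete and excess media. Per kb, FOSL1 was 14.3 ± 2.46% of FOS, FOSB and FOSL1 together in cysteine-free (n = 2), 42.9 ± 8.68% in complete (n = 4) and 57.8 ± 3.29% in excess media (n = 4). The share of FOSB went the other way, at 46.9 ± 0.228%, 24.4 ± 3.75% and 18.5 ± 1.34%. The shares are parts of one total and so are not independent. In normalized counts FOSB was higher in excess (224 ± 28.3) than in complete media (158 ± 29.9). FOS was 38.9 ± 2.23%, 32.7 ± 7.30% and 23.6 ± 3.32%. These ratios were chosen after the values were seen and were not tested.

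**Figure D2:**
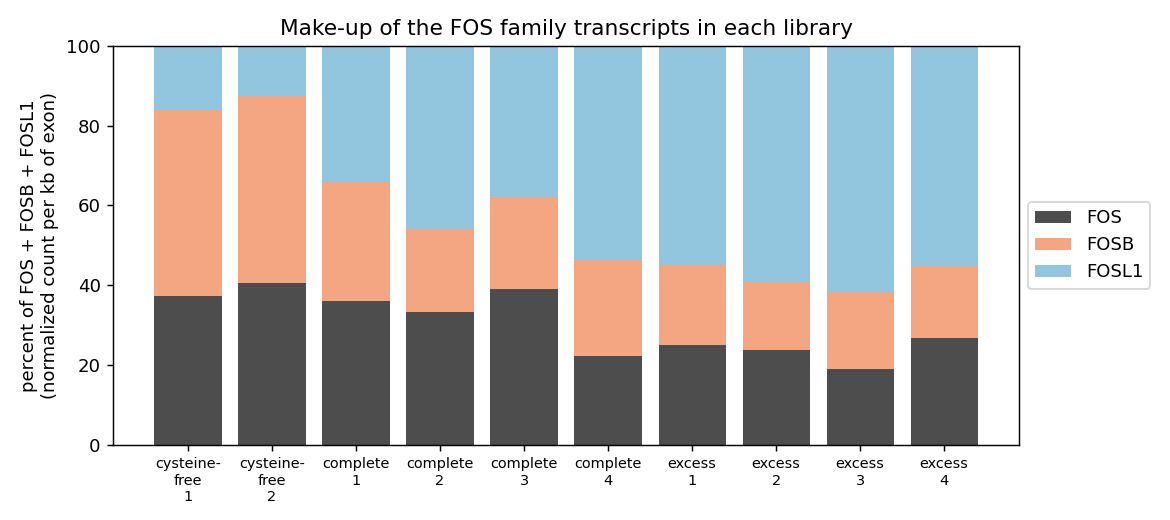
Percent of the summed FOS, FOSB and FOSL1 transcripts (normalized count per kb of exon, vertical axis) held by each gene in each of the 10 libraries (horizontal axis). FOSL1 is at most 16.0% in the cysteine-free libraries and at least 54.9% in the excess libraries.

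Of the JUN subunits, JUN (chr1:58776845-58784048, minus strand), the most abundant member, differed little between media. Its normalized counts were 10298 and 10345 in cysteine-free, 9327, 8057, 11941 and 6913 in complete, and 9239, 9474, 9449 and 9774 in excess media. Complete media spanned both other groups, with an SD of 2159 around 9059.5, compared with 219.95 around 9484 in excess media. Neither comparison with complete media passed the test (log2 0.22, SE 0.144, limma adjusted p = 0.290; and 0.10, SE 0.107, adjusted p = 0.470). JUN was called 1.09-fold higher in cysteine-free than in excess media (log2 0.12, SE 0.037, adjusted p = 6.23e-03), but the call was lost when all 3 groups shared one estimate of the spread (adjusted p = 0.429) and in 10 of the other alternatives.

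JUNB (chr19:12791486-12793315, plus strand), which often restrains the activity of JUN, was higher in excess media than in both other groups. It was at 329 and 302 in cysteine-free, 431, 425, 339 and 517 in complete, and 564, 504, 591 and 635 in excess media. The cysteine-free libraries lay below all others, and excess and complete media overlapped only through complete replicate 4 (517) and excess replicate 2 (504). The difference of excess from complete media was 0.43 on the log2 scale (SE 0.108, limma adjusted p = 2.49e-03; 0.0127 without excess replicate 4), and that of cysteine-free media was -0.42 (SE 0.143, adjusted p = 0.0411), which was not called at the threshold of 0.01. Over the main fit and the alternatives at the same threshold, excess against complete media was called in 19 of 21. Cysteine-free against excess media gave -0.86 (SE 0.091, adjusted p = 1.29e-08). JUNB shares 259 exon bases with HOOK2 on the opposite strand, which stood at 1241 ± 38.3 in cysteine-free, 818 ± 85.4 in complete and 815 ± 42.8 in excess media, an order unlike that of JUNB. The strand setting of the counting is not given in the sources used here, and the part of shared reads in the values of JUNB, IER2 and IER3 was not tested.

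From complete to excess media the EGR genes moved in opposite directions. EGR1 (chr5:138465479-138469303, plus strand), a growth-factor-induced zinc-finger factor, was at 1209.55 and 1309.77 in cysteine-free, 591, 589, 559 and 425 in complete, and 278, 269, 213 and 311 in excess media. The 3 groups were fully separated, in falling order with more cysteine. Compared with complete media (541 ± 79.0), EGR1 was 2.34-fold higher without cysteine (log2 1.23, SE 0.123, limma adjusted p = 1.37e-05) and 2.02-fold lower with excess cysteine (log2 -1.01, SE 0.120, adjusted p = 1.65e-06). From cysteine-free to excess media the fold was 4.73 (log2 2.24, SE 0.107, adjusted p = 5.83e-15). EGR1 shares no exon bases with another gene, and its call held in every alternative run except, for cysteine-free against complete media, that without a filter on low values (adjusted p = 0.0349).

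EGR2 (chr10:62811996-62819167, minus strand), known for its role in myelinating Schwann cells, was at 9.11 and 18.5 in cysteine-free, 18.9, 32.1, 30.5 and 26.3 in complete, and 48.8, 58.7, 59.7 and 47.6 in excess media. The groups did not overlap, although the upper cysteine-free and lowest complete libraries nearly met. The rise from complete (27.0 ± 5.89) to excess media (53.7 ± 6.40) was 1.98-fold (log2 0.99, SE 0.220, limma adjusted p = 9.96e-04). The difference of cysteine-free from complete media, -0.97, had an SE of 0.395 and did not pass (adjusted p = 0.0865), at 8 and 17 reads in the cysteine-free libraries. It was -0.49 without cysteine-free replicate 1 and -1.44 without replicate 2. Per kb, EGR1 exceeded EGR2 120.2-fold ± 51.9 in cysteine-free, 24.8-fold ± 8.17 in complete and 6.03-fold ± 1.53 in excess media, a ratio given as a description. EGR2 shares 145 exon bases with ENSG00000289487 on its own strand, which had 0 to 6.42 normalized counts per library.

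The IER genes showed small differences. IER2 (chr19:13150411-13154911, plus strand), which encodes a small nuclear protein, was at 1728 and 1796 in cysteine-free, 1503, 1594, 1393 and 1525 in complete, and 1491, 1567, 1435.5 and 1625 in excess media. The cysteine-free libraries lay above all others, and complete and excess media overlapped, with means of 1504 ± 83.3 and 1529.55 ± 83.5. The differences were 0.23 (SE 0.072, limma adjusted p = 0.0291) without cysteine and 0.02 (SE 0.057, adjusted p = 0.735) with excess. Cysteine-free media were called above excess media (log2 0.21, SE 0.057, adjusted p = 3.38e-03), a call lost with equal library totals (0.12, adjusted p = 0.0558), with one fit of all groups (adjusted p = 0.0158), and without either cysteine-free replicate or excess replicate 3. Of 19 fits at this threshold, 13 gave the call. IER2 shares exon bases with a pair of unnamed opposite-strand genes, 946 of them with ENSG00000267598, itself at 902 ± 40.9, 747 ± 70.4 and 790.1 ± 60.3.

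IER3 (chr6:30743199-30744548, minus strand), a regulator of apoptosis and ERK signalling, was highest in complete media. Its values were 198 and 188 in cysteine-free, 289.9, 274, 226 and 308 in complete, and 198, 188, 201 and 235 in excess media. Only complete replicate 3 (226) and excess replicate 4 (235) brought those groups to overlap, and cysteine-free media lay below every complete library. IER3 fell in excess media by 0.41 on the log2 scale (SE 0.111, limma adjusted p = 4.17e-03), but this call was lost without any one of 6 of the 8 libraries (adjusted p 0.0112 to 0.0171) and with equal totals. It held in 13 of 21 fits at this threshold, the main one included. The difference of -0.50 in cysteine-free media (SE 0.142, adjusted p = 0.0184) was not called. IER3-AS1, which shares 440 exon bases on the opposite strand, stood at 178 ± 28.4, 179.6 ± 16.3 and 143 ± 14.8 in the same order of media. HCG20, which shares 85 exon bases on that strand, stood at 43.5 ± 6.06, 69.9 ± 16.7 and 49.7 ± 3.95, highest in complete media like IER3.

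DUSP1 (chr5:172768096-172771195, minus strand), the nuclear phosphatase for p38, JNK and ERK, rose in step with cysteine and with little spread. It was at 634 and 659.8 in cysteine-free, 940.1, 909, 881 and 909 in complete, and 1139, 1134, 1115 and 1254 in excess media. All 3 groups were separated, by gaps wider than those between the libraries of any one group. Against complete media (909.8 ± 24.1) the log2 differences were -0.49 without cysteine (SE 0.078, limma adjusted p = 4.94e-04) and 0.35 with excess (SE 0.057, adjusted p = 5.31e-05), with -0.84 between the outer groups (SE 0.065, adjusted p = 4.78e-11). Without cysteine-free replicate 1 or 2, the first of these was at an adjusted p of 0.0174 or 0.0116. Per kb, EGR1 was 1.25 ± 0.0356 times DUSP1 in cysteine-free, 0.382 ± 0.0548 times in complete and 0.148 ± 0.0169 times in excess media, so EGR1 exceeded DUSP1 in cysteine-free libraries only, as a description with no test.

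Counted over the 10 members, 4 were called between cysteine-free and complete media at a limma adjusted p of 0.01 or less (Benjamini-Hochberg over all kept genes), FOSB and EGR1 higher and FOSL1 and DUSP1 lower. Over all 29045 kept genes 15.9% were called, 7.39% higher and 8.51% lower. The groups did not overlap for 9 of the 10 members, JUN being the exception, against 46.9% of all genes. The exact 2-sided permutation p was 0.0667, the smallest that 2 against 4 libraries allow, for 7 members, and larger for FOS, JUN and JUNB. Without cysteine-free replicate 1 or 2 the number called was 2 or 1, and without complete replicate 3 it was 7.

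Between excess and complete media 7 members were called, FOSB, FOSL1, JUNB, EGR2 and DUSP1 higher and EGR1 and IER3 lower. In this comparison 46.0% of all kept genes were called, 23.1% higher and 22.9% lower. Of all calls 50.3% were higher, and 61.8% were when libraries were scaled to equal totals. The groups did not overlap for 4 members, FOSL1, EGR1, EGR2 and DUSP1, against 51.6% of all genes, and for these 4 the exact permutation p was 0.0286, the smallest that 4 against 4 libraries allow. The excess libraries also differ in that mitochondrial genes took 0.129 ± 0.0129% of reads, compared with 4.71 ± 0.250% in complete and 5.43 ± 0.397% in cysteine-free media. With libraries scaled to equal totals over nuclear genes, a setting added after the data were seen, 7 members were again called.

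Between cysteine-free and excess media 8 members were called, FOSB, JUN, EGR1 and IER2 higher without cysteine and FOSL1, JUNB, EGR2 and DUSP1 lower. Of all kept genes 48.0% were called, 23.6% higher and 24.4% lower in cysteine-free media, and the groups did not overlap for the 8 called members against 66.0% of all genes. FOS and IER3 overlapped, with log2 differences of 0.10 (adjusted p = 0.642 by limma) and -0.08 (adjusted p = 0.573). These 3 comparisons share libraries, so a call in one is not independent of the others.

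**Figure D3:**
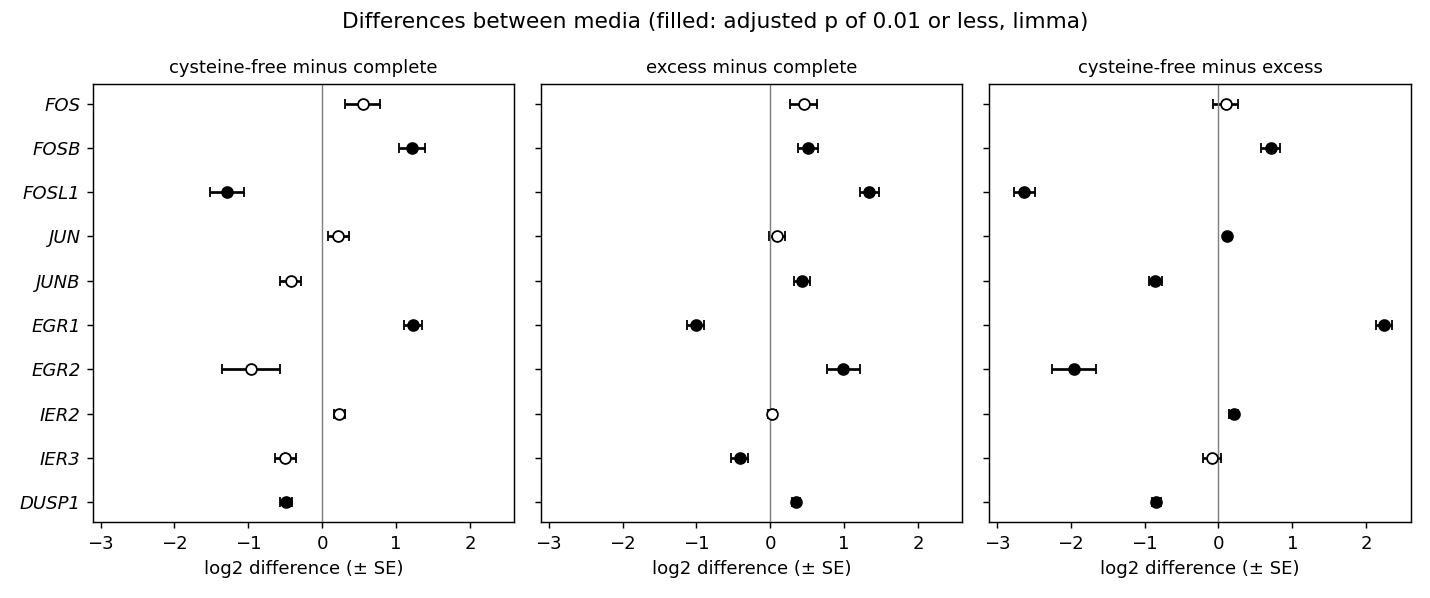
Log2 difference of each member (horizontal axis, ± SE from limma) between cysteine-free and complete, excess and complete, and cysteine-free and excess media, filled where the adjusted p is 0.01 or less. EGR1 and FOSL1 lie furthest from 0 in the third panel, at 2.24 and -2.63, on opposite sides.

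In complete and excess media the replicates of most immediate early genes spread more than those of the median gene. In complete media the SD of log2 values between libraries had a median of 0.251 over the members, from 0.038 for DUSP1 to 0.378 for FOS, compared with 0.101 over 17679 genes with a mean of 100 or more, and 8 of 10 members were above that median. In excess media the members' median was 0.138, from 0.033 for JUN to 0.287 for FOS, against 0.0687, with 8 of 10 above. In cysteine-free media, with 2 libraries, it was 0.0685 against 0.0571, with 5 of 10 above. No library stood at an extreme for every member. Complete replicate 4 was the highest of its group for FOSL1, JUNB and IER3 and the lowest for FOS, JUN and EGR1, whereas complete replicate 3 was the highest for JUN and the lowest for JUNB, IER2, IER3 and DUSP1. In excess media, replicate 4 was the highest for 7 members and the lowest for EGR2. The members were not matched by level to the genes they are set against, whose mean over all 10 libraries was 100 or more. In complete media FOSL1 and EGR2 had means under 100, and EGR2 stayed under 100 in every group. Counting error widens the spread of members with few reads, such as FOS with 73 to 137 in complete media. The part of counting error in these SDs was not tested.

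**Figure D4:**
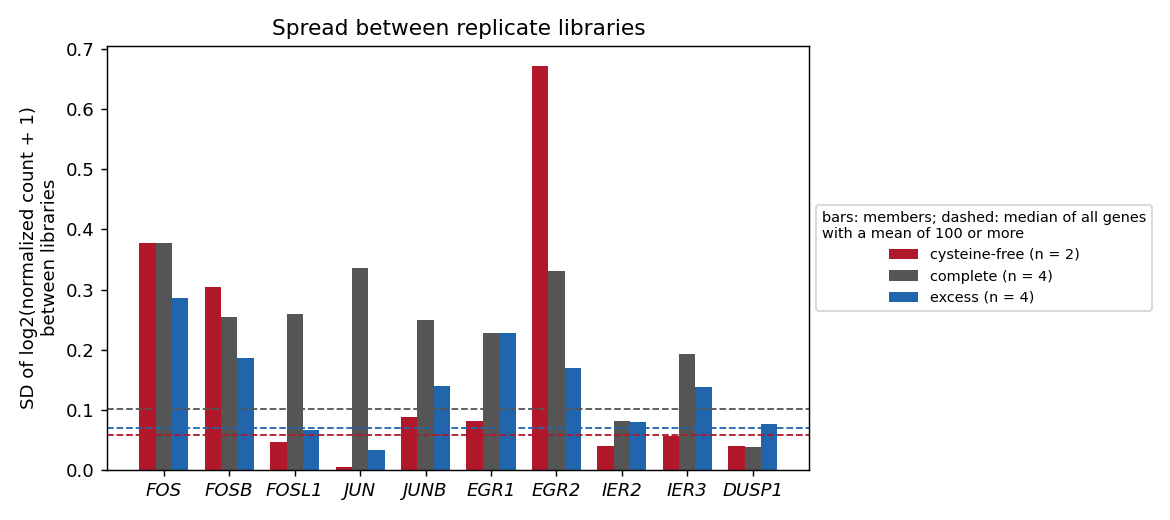
SD of log2(normalized count + 1) between replicate libraries (vertical axis) for each member in cysteine-free (red, n = 2), complete (grey, n = 4) and excess (blue, n = 4) media, with dashed lines for the median SD of all genes with a mean of 100 or more. FOS is at 0.378 in complete media, above the dashed line at 0.101, and DUSP1 is below it.

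The genes with the profile most like a member were sought by the root mean square difference of log2 values over the 10 libraries, after setting each gene's mean in complete media to 0, among 14543 genes with a symbol and a mean of 100 or more. For EGR1 this was LINC01419, a long non-coding RNA, at 268 ± 20.8, 130.5 ± 19.8 and 67.4 ± 16.5 in cysteine-free, complete and excess media (difference 0.190, against a median of 0.88 over candidates). For IER3 it was BPGM, the bisphosphoglycerate mutase, at 850.4 ± 18.8, 1177 ± 103 and 859 ± 35.5 (0.074). FOSL1 was matched by SPTBN5 (0.18), FOSB by RIBC1 (0.14), FOS by ZNF823 (0.19), JUN by CUL1 (0.074), JUNB by CAB39L (0.090), EGR2 by GUCY1A2 (0.29) and IER2 by TMLHE (0.048). The members themselves were not among the candidates.

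The wider set of immediate early genes was read from a list of 41, of which 40 passed the filter (EGR4 did not). Over all kept genes, 7.39% were called higher and 8.51% lower without cysteine, and 23.1% higher and 22.9% lower with excess. Between the outer media 23.6% were higher and 24.4% lower in cysteine-free media. In cysteine-free against complete media, 3 of them rose, 9 fell and 28 did not pass, with a median log2 difference of -0.26 against 0.00 over all genes. BTG2, an antiproliferative gene, fell from 1131 ± 183 to 531 ± 106 (log2 -1.09, limma adjusted p = 1.23e-04), and SIK1, a salt-inducible kinase, fell from 454 ± 30.8 to 231 ± 4.73 (-0.97, adjusted p = 3.46e-05). ID1, an inhibitor of basic helix-loop-helix factors, fell by 0.71 (adjusted p = 9.67e-03). In excess media 26 rose and 8 fell, with a median of 0.73 against 0.01. ATF3, a stress-induced AP-1 partner, rose from 1361 ± 133 to 10371 ± 256 (log2 2.93, adjusted p = 2.39e-16), and PPP1R15A, which encodes the eIF2-alpha phosphatase subunit GADD34, from 1556 ± 61.0 to 9492 ± 469 (2.61, adjusted p = 8.95e-17). FOSL2, the fourth FOS family gene, rose from 208 ± 32.2 to 860.4 ± 45.9 (2.06, adjusted p = 3.46e-11). Of the 8 that fell in excess media, MYC went from 5372 ± 436 to 2929 ± 99.7 (-0.87, adjusted p = 4.88e-10). ID1, ID2 and ID3 fell by 1.20, 1.13 and 1.11 (adjusted p = 2.15e-06, 5.53e-12 and 2.28e-09). These falls were named after their values were seen. Between cysteine-free and excess media 4 were higher and 27 lower without cysteine (median -0.90), CSRNP1 among them (-2.47, adjusted p = 7.97e-19).

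Next came the partners of the members. Of 13 AP-1 partners that passed the filter (BATF did not), 2 rose and 2 fell without cysteine. JDP2, a repressor of AP-1, rose by 1.45 (limma adjusted p = 9.80e-07), ATF3 rose by 0.65 (adjusted p = 1.06e-04) and MAFK, a small MAF protein, fell by 0.87 (adjusted p = 2.03e-05). In excess media 7 rose and 1 fell, with MAFG at 1.69 (adjusted p = 6.34e-13). Of those that rose, FOSL2, JUND, ATF3 and MAFF are also on the list of immediate early genes above. Between the outer media 2 were higher and 7 lower without cysteine. These counts stand beside calls for 15.9% of all kept genes without cysteine, 46.0% in excess media and 48.0% between the outer media. Of EGR3, NAB1 and NAB2, 1 fell and 2 did not pass without cysteine, and 1 rose and 1 fell in excess media. EGR3, another EGR zinc-finger factor, rose in excess media from 49.4 ± 13.0 to 92.1 ± 20.5 (log2 0.90, adjusted p = 1.40e-03) and was named after its values were seen. NAB2, a corepressor that binds EGR1, fell in both media, by 0.49 without cysteine (adjusted p = 4.55e-03) and by 0.50 with excess (adjusted p = 1.41e-04).

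Of 16 other MAPK phosphatases and Sprouty-type inhibitors, which like DUSP1 damp MAPK signalling, 4 fell and 12 did not pass without cysteine (median -0.31), led by DUSP5 (-1.07, limma adjusted p = 6.39e-04), SPRY1 (-0.66, adjusted p = 3.99e-04) and DUSP8 (-0.61, adjusted p = 2.40e-04). In excess media 12 rose and 2 fell (median 0.93), with SPRED3 at 1.82 (adjusted p = 8.41e-08), SPRED2 at 1.45 (adjusted p = 3.92e-09) and DUSP4 at 1.36 (adjusted p = 1.20e-08). Between the outer media 13 were lower and 1 was higher without cysteine (median -1.08). Of all kept genes, 15.9% were called without cysteine, 46.0% in excess media and 48.0% between the outer media. DUSP5 then stood at 102 ± 11.8 against 479.9 ± 33.6 and DUSP8 at 509 ± 44.3 against 1857 ± 102.

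The signalling genes upstream showed smaller or mixed differences. Their counts stand beside calls for 15.9% of all kept genes without cysteine and 46.0% in excess media. Of 22 MAPK cascade kinases 3 rose and 2 fell without cysteine, RPS6KA2 rising by 1.14 (limma adjusted p = 9.53e-08), MAP2K5 by 0.60 (adjusted p = 2.33e-04), with MAP2K3 at -0.64 (adjusted p = 3.33e-05). In excess media 7 rose and 6 fell, and MAP2K6, a p38 kinase kinase, dropped from 1245 ± 73.5 to 289.7 ± 30.9 (-2.10, adjusted p = 1.44e-12), with MAPK3, which encodes ERK1, at -0.65 (adjusted p = 2.61e-09) and RPS6KA4 at -0.67 (adjusted p = 3.93e-05). Of 14 serum response, ternary complex and CREB-type factors, 3 rose and 2 fell without cysteine, with ELK4 at -0.65 and CREB1 at 0.39 (adjusted p = 1.34e-04 and 5.18e-03). In excess media 8 rose and 2 fell, with the coactivator CREBBP at 0.74 (adjusted p = 1.39e-09), CREM at 0.58 (adjusted p = 3.55e-05) and CRTC3 at 0.52 (adjusted p = 1.20e-06). CRTC3 had also risen by 0.40 without cysteine (adjusted p = 3.29e-03). SRF itself, also on the list of immediate early genes above, fell by 0.32 in cysteine-free (adjusted p = 3.40e-03) and by 0.32 in excess media (adjusted p = 4.19e-05).

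Of 16 growth factor ligands and receptors that passed the filter (EREG and BTC did not), 2 fell and 14 did not pass without cysteine, FGFR3 (-0.65, limma adjusted p = 3.12e-04) and FGFR4 (-0.59, adjusted p = 5.69e-04). In excess media 6 rose and 4 fell, with the receptors FGFR4 and FGFR3 at -1.68 and -1.18 (adjusted p = 5.91e-11 and 6.93e-10) and the ligand TGFA at 1.22 (adjusted p = 1.90e-06). Of 14 factors that decay or protect AU-rich mRNAs, 1 rose and 1 fell without cysteine, the exonuclease XRN1 at 0.61 (adjusted p = 1.69e-03) and ZFP36L2 at -0.32 (adjusted p = 3.43e-03), whereas 7 rose and 6 fell in excess media. ZFP36, which binds AU-rich elements and promotes decay, rose from 111 ± 23.6 to 279.5 ± 29.9 (1.34, adjusted p = 3.73e-07), XRN1 rose by 0.62 (adjusted p = 9.81e-06) and HNRNPD fell by 0.58 (adjusted p = 6.97e-10). Among the genes named from lists, CSRNP1, ID2, MYC, JDP2, MAFF, MAFK, MAFG, NAB1, NAB2 and EGR3 share exon bases with another gene. So do RPS6KA2, ELK4, CREB1, CRTC3, CREM, ZFP36L1, ZFP36L2 and HNRNPD. The counts of all 8 lists are to be read against 15.9% of genes called without cysteine, 46.0% with excess and 48.0% between the outer media. Without cysteine, the 2 calls among 16 growth factor genes and the 2 among 14 AU-rich factors lie near the share of 15.9%. They are not read as a result about those lists. Genes on several lists, such as EGR3, HBEGF, ZFP36 and ZFP36L1, are counted in each.

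**Figure D5:**
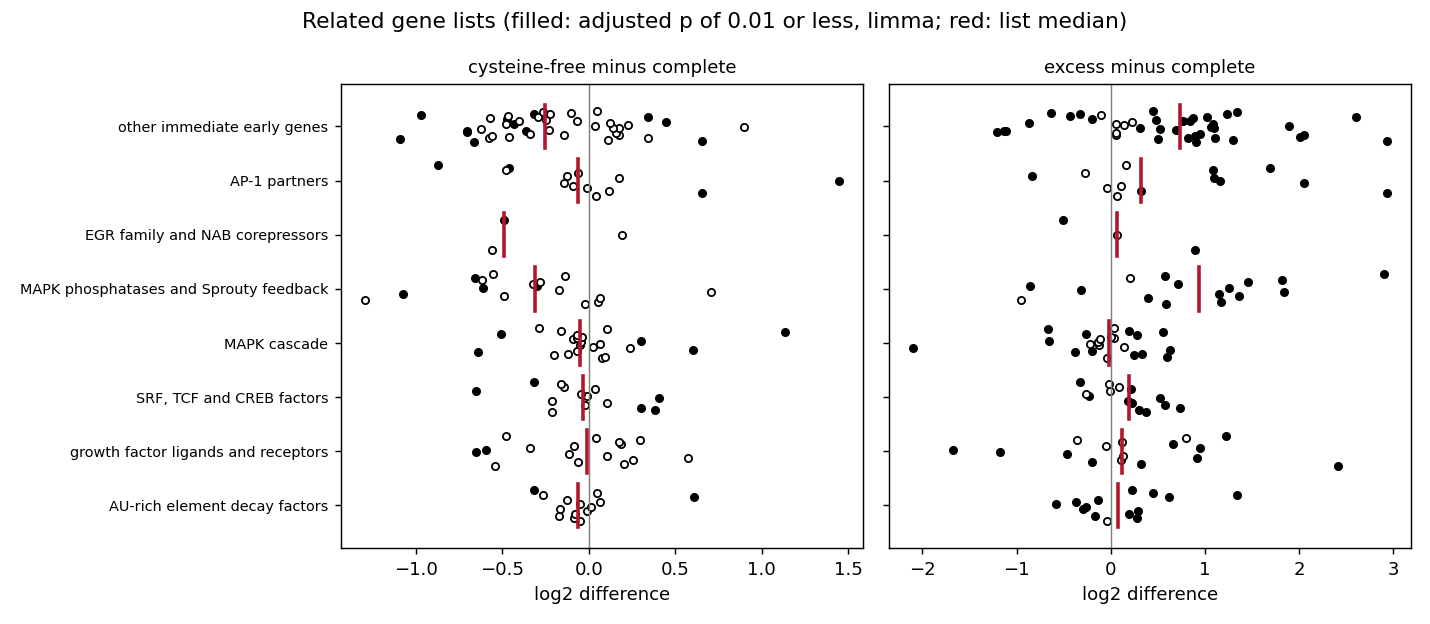
Log2 difference (horizontal axes) of the genes on 8 related lists (rows) in cysteine-free minus complete (left) and excess minus complete (right) media, filled where the limma adjusted p is 0.01 or less, with the list median in red. The medians of the other immediate early genes and of the MAPK phosphatases lie at -0.26 and -0.31 on the left and at 0.73 and 0.93 on the right.

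Each library held between 34836014 and 61654861 reads on genes. The 8 markers of HEK293T cells were all detected, at a summed 48477 to 60366 normalized counts per library. Of 10 markers of blood, endothelial, liver, lung and fibroblast cells, 6 stayed below 10 throughout, with CD3E and HBB at 0 in every library. No pair of replicates agreed within sampling noise (chi-square per degree of freedom 3.53 to 14.7), so each library was counted once. In excess media, pairs without replicate 4 were at 3.53 to 4.09 and pairs with it at 8.94 to 13.8. Pairs of complete libraries were at 4.34 to 14.7, the highest being replicates 3 and 4.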

How the data were processed

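Poly(A) RNA of HEK293T cells was measured in 10 libraries, grouped by the medium in their labels. The authors aligned paired reads with STAR 2.7.10b to GRCh38, counted reads per Ensembl gene, discarding reads that overlapped several genes, and deposited 1 table of gene counts divided by DESeq2 size factors, here called normalized counts (unit: signal). The study's methods name featureCounts and the submitters' processing notes name HTSeq as the counter, and strand settings are not given in the sources used here. In every library the deposited signal values were whole multiples of 1 step (tolerance 0.01 of a read), from which reads were recovered. A library held between 34836014 and 61654861 reads on genes, and counting error matters most for members with few reads, such as EGR2 and FOSL1, with as few as 8 and 32 in a library.

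GENCODE release 44 held 61463 of the 78894 identifiers and gave a symbol for 42165. Kept were 29045 genes, those at 10 or above in at least 3 libraries. Log2(normalized count + 1) was fitted in R 4.3.3 by limma 3.58.1 (lmFit, then eBayes with a trend; 2-sided) on the compared groups alone, with Benjamini-Hochberg adjustment over all kept genes and calls at an adjusted p of 0.01 or less. A log2 difference on this scale understates the change of low genes. All adjusted p-values are from limma unless another tool is named, and a single member was also tested by an exact permutation test. The p-values measure the spread between libraries labelled as biological replicates. The study's own test was DESeq2 on counts. The procedure was tested on simulated data.

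All members were named, with, from each of 8 related lists, the 3 called genes with the largest difference whose higher group had a mean of at least 100, of which some in the comparison of cysteine-free with excess media are not repeated. The members and lists were chosen with earlier results of these data known. Alternatives were pseudocounts of 0.5 and 10, no filter, a minimum of 50, equal totals, TMM and quantile scaling, 1 fit for all groups, a block for the replicate number, other thresholds, recovered reads tested by DESeq2 1.42.0 and by edgeR 4.0.16, each library left out, and, added after the data were seen, equal totals over nuclear genes. Figures were drawn with Python 3.11.15. The nearest profile to DUSP1 and the summed level of the markers of other cells are not reported here.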

Additional observations from a re-analysis of the deposited data

How the results depend on the processing

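For the 10 members, 546 of 617 values under the alternatives kept their direction and their side of the threshold, 52 lost a call, 13 gained one and 6 changed sign. Sign changed only where a member lay near 0 and was not called. In excess against complete media with 1 library left out, JUN ranged from -0.025 (without complete replicate 4) to 0.24 and IER2 from -0.012 (without complete replicate 3; -0.0051 without excess replicate 4) to 0.055. In cysteine-free against excess media FOS ranged likewise from -0.17 (without cysteine-free replicate 2; -0.018 without excess replicate 3) to 0.36, and IER3 was at 0.00019 with the replicate block.

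In cysteine-free against complete media the number of genes called moved from 4618 to 390 without a filter, 7987 at an adjusted p of 0.05 and 609 with a change of at least 2-fold, and members called from 4 to 1 without a filter and 7 at 0.05. In excess against complete media it moved from 13372 to 2942 with at least 2-fold, and members from 7 to 4 without a filter and 2 with at least 2-fold. In cysteine-free against excess media it moved from 13954 to 6877 without a filter and 3610 with at least 2-fold, and members from 8 to 4 and 3. The cause of the fall without a filter was not tested. Leaving out 1 library gave 978 to 6300, 11958 to 13691 and 11593 to 13334 genes, and 1 to 7, 5 to 8 and 6 to 8 members, in the same order of comparisons. The lowest counts in the first came without cysteine-free replicate 1 (1198 genes, 2 members) or 2 (978 genes, 1 member), where the lone library is assumed to vary like the complete libraries. Without complete replicate 1 or 2 there were 2968 or 2795 genes, and without complete replicate 3 there were 6300 genes and 7 members.

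Libraries with the same replicate number did not deviate together (correlations of -0.116 to 0.103 over 17679 genes), so the numbers were not taken as pairs. With the replicate block 7 members and 6532 genes were called in cysteine-free against complete media, adding JUN (0.25), JUNB (-0.44) and IER3 (-0.55), and 7 and 8 members with 13392 and 12393 genes in the other comparisons. Equal totals moved the median of all genes from 0.01 to 0.12 in excess against complete media, where IER3 was then at -0.31 and not called. The 20 groups of 4 member values held no library set apart by Dixon's test, against 1 expected by chance. EGR2 was not tested with a minimum of 50.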
